A study of Mus musculus with 8 samples.

Results

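*Akr1c18*, *Pik3c2g*, *Thrb*, *Thra* and *Dio1* are 5 genes that mark the adrenal X-zone or carry the thyroid hormone signal in it. They were taken by symbol from the 21905 gene symbols measured on arrays of whole mouse adrenals, and each was represented by 1 transcript cluster (the group of probes that reads 1 gene). RNA came from 4 sf1:Cre; Prkar1a Fl/Fl (KO) adrenals and 4 wild-type (WT) littermate adrenals, with 1 array per adrenal sample. All mice were female, 6 weeks old and of mixed background. In the KO mice, both floxed alleles of *Prkar1a*, the regulatory subunit that restrains protein kinase A (PKA), are inactivated by Cre under Sf1 regulatory regions, which are active in all steroidogenic cells of the cortex from its inception. Sf1 is also expressed in the gonads and the pituitary, and the Cre or floxed alleles carried by the littermates are not given in the sources used here. The comparison asks how constant PKA activity changed adrenal gene expression.

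The X-zone is a transient layer of fetal origin that lies against the medulla of the mouse adrenal and is lost at puberty in males and in the first pregnancy in females. Its cells make *Akr1c18*, the hydroxysteroid dehydrogenase that inactivates progesterone, and *Pik3c2g*, a class II phosphoinositide kinase. They also carry the β form of the thyroid hormone receptor, encoded by *Thrb*, and thyroid hormone given to mice enlarges the zone or delays its loss. *Thra* encodes the α form, and *Dio1* encodes a selenoenzyme that removes iodine from thyroxine to make the active hormone triiodothyronine. Both receptors bind DNA as pairs with retinoid X receptors and exchange corepressors for coactivators when the hormone binds.

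Expression values are log2 RMA values, in which 1 unit is a change of 2 times. *Prkar1a* measured 6.92, 7.30, 7.35 and 7.19 in KO replicates 1 to 4, against 8.83, 9.11, 9.04 and 8.70 in WT replicates 1 to 4, and fell by 1.73 (SE 0.12). Array medians lay between 5.83 and 5.89. Zona fasciculata markers were high on every array, with a mean over 5 markers from 11.95 to 12.12 in KO and from 11.77 to 11.93 in WT, while all 6 zona glomerulosa markers fell. Of 22822 transcript clusters tested with limma and Benjamini–Hochberg adjustment, 13.5% were called at an adjusted p under 0.05, 6.17% lower and 7.35% higher in KO. The 2 genotypes did not overlap in 19% of clusters. Over all clusters the median log2 fold change of KO over WT was -0.02. The 5 zona fasciculata markers were split, as 2 rose, 1 fell and 2 did not pass. Adipocyte markers differed between the genotypes, and 8 of 11 measured fell. Their mean per array ranged from 6.67 to 8.30 in KO and from 7.91 to 9.95 in WT, with the lowest WT value in replicate 1.

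The RefSeq table held promoters of 4 of the 5 genes, and 3 are shown because they belong to an X-zone marker that fell, a receptor that fell and an X-zone marker that did not pass the test. Each window runs from 250 bases before the start of transcription to 50 bases after it, on GRCm38.p6. Capitals mark the nuclear receptor core AGGTCA and the cAMP response element core TGACG, both searched on both strands.
*Pik3c2g* first start, chr6:139613822-139614121, plus strand: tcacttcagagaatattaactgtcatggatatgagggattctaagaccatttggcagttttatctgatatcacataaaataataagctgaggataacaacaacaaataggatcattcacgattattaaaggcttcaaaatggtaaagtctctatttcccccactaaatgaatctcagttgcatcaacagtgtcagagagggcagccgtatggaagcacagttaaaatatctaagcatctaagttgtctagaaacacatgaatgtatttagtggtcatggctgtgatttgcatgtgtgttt
*Thrb* first start, chr14:17660710-17661009, plus strand: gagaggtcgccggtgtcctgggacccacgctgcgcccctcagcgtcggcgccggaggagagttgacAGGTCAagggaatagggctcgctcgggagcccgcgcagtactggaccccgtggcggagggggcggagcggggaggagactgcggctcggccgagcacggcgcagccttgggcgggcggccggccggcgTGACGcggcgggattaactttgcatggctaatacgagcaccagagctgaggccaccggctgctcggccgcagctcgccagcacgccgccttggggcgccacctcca
*Akr1c18*, chr13:4150597-4150896, minus strand: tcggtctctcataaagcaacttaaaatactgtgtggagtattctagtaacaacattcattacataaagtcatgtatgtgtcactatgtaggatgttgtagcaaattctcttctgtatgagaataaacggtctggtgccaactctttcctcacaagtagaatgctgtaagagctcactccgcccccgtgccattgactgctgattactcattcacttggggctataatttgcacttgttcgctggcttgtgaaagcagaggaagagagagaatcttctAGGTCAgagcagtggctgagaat

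AGGTCA stood once in the *Thrb* window, at position -184 from the start, and once in the *Akr1c18* window, at position 28. TGACG stood once in the *Thrb* window, at position -56. The *Pik3c2g* window held neither, and none of the 3 windows held the full element TGACGTCA, which contains TGACG, or the SF-1 site CAAGGTCA, which contains AGGTCA. Of 32851 windows of the same length, 16.3% held AGGTCA, 20.8% TGACG, 1.79% TGACGTCA and 1.56% CAAGGTCA. AGGTCA was present both in a window of a gene that fell and in one of a gene that did not pass the test. The GC content of the windows was 36% in *Pik3c2g*, 72.7% in *Thrb* and 42.3% in *Akr1c18*.

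In KO adrenals 3 of the 5 genes fell, beside 6.17% of all clusters, and 2 did not pass the test, with 13.5% of all clusters called in either direction. *Pik3c2g* and *Thrb* fell by 0.93 and 0.90 on the log2 scale, *Thra* fell by 0.50, and *Akr1c18* and *Dio1* had log2 fold changes close to 0. The same 3 genes had no overlap between the genotypes, beside 19% of all clusters. *Pik3c2g* lies on chromosome 6, *Thrb* on chromosome 14, *Thra* on chromosome 11, *Akr1c18* on chromosome 13 and *Dio1* on chromosome 4. In whole adrenals, fewer cells of a type and less RNA per cell cannot be told apart.

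Of the 2 X-zone enzymes, *Pik3c2g* passed the test and *Akr1c18* did not. *Akr1c18* measured 13.10, 12.92, 12.87 and 13.03 in KO replicates 1 to 4, against 12.83, 13.00, 13.04 and 12.92 in WT replicates 1 to 4. The 8 values were interleaved, with the highest in KO replicate 1 and the lowest in WT replicate 1. The log2 fold change was 0.030 (SE 0.077, 95% interval -0.14 to 0.20, adjusted p = 0.86 from limma). *Akr1c18* was among the brightest clusters, with only 11 of 22822 above it, and the highest value on any array lay between 13.34 and 13.42. Array signals can flatten near this upper end, and its part in this value was not tested. In the same genotype, the paper reports by staining that fetal-like cells positive for the hydroxysteroid dehydrogenase encoded by *Akr1c18* expanded outward. How that expansion relates to the array values of *Akr1c18* was not tested.

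*Pik3c2g* measured 5.06, 5.20, 5.17 and 5.09 in KO adrenals, against 6.17, 6.10, 5.97 and 6.0 in WT adrenals. Every KO array lay below every WT array, and the spread within each genotype was small against the gap. As measured, *Pik3c2g* fell by 0.93 on the log2 scale, or 1.91-fold (SE 0.070, 95% interval -1.09 to -0.78, adjusted p = 2.1e-05 from limma), which ranks 34 by p among all clusters that were lower in KO. The KO values lay between the lowest and highest kidney marker value on any array, 3.66 and 5.84, and were not distinguishable from those of genes of another organ, so the size of the fall is not exact. Of 8 chromaffin cell markers of the medulla, which borders the X-zone, 7 did not pass and 1, *Pnmt*, rose. Over all clusters 13.5% were called. Their mean per array ranged from 9.05 to 9.53 in KO and from 9.24 to 9.47 in WT.

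The distance between the 2 markers was compared array by array. The log2 value of *Pik3c2g* minus that of *Akr1c18* was -8.04, -7.72, -7.71 and -7.94 in KO adrenals, against -6.66, -6.90, -7.08 and -6.92 in WT adrenals. All KO differences lay below all WT differences. The mean shift was -0.96, with an exact two-sided permutation p of 0.0286, the smallest that 4 against 4 arrays allow. Adjusted over the 2 such comparisons made, p was 0.0571, which does not pass. It could pass only if the other comparison also reached 0.0286, so this outcome was not set by these values alone. The shift is close to the fall of *Pik3c2g* alone, and it sets a gene near the upper end of the scale against one whose KO values lay in the kidney marker range.

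Both thyroid hormone receptor genes fell. *Thrb* measured 8.70, 8.22, 8.11 and 8.38 in KO replicates 1 to 4, against 9.21, 9.12, 9.46 and 9.23 in WT replicates 1 to 4. KO replicate 1 was the highest KO array and still lay below every WT array. *Thrb* fell by 0.90, or 1.87-fold (SE 0.12, 95% interval -1.18 to -0.63, adjusted p = 8.4e-04 from limma). *Thra* measured 6.57, 6.64, 6.61 and 6.52 in KO adrenals, against 7.13, 7.17, 7.12 and 6.94 in WT adrenals. The KO arrays were tight, and WT replicate 4 was the lowest WT array without reaching them. *Thra* fell by 0.50, or 1.42-fold (SE 0.071, 95% interval -0.66 to -0.34, adjusted p = 9.8e-04 from limma).

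The fall of *Thrb* was not shown to differ from that of *Thra*. The log2 value of *Thrb* minus that of *Thra* was 2.13, 1.58, 1.50 and 1.85 in KO adrenals, against 2.09, 1.95, 2.34 and 2.29 in WT adrenals. KO replicate 1 lay among the WT arrays. The mean shift was -0.40 (exact two-sided permutation p = 0.0857, also 0.0857 when adjusted over the 2 comparisons).

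*Dio1* measured 5.21, 5.31, 5.17 and 5.29 in KO adrenals, against 5.44, 5.07, 5.43 and 5.21 in WT adrenals. The WT arrays enclosed all KO arrays. The log2 fold change was -0.045 (SE 0.092, 95% interval -0.25 to 0.16, adjusted p = 0.82 from limma). These values also lay inside the range of the kidney markers, so the level of *Dio1* was not distinguishable from that of genes of another organ.

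**Figure D1:**
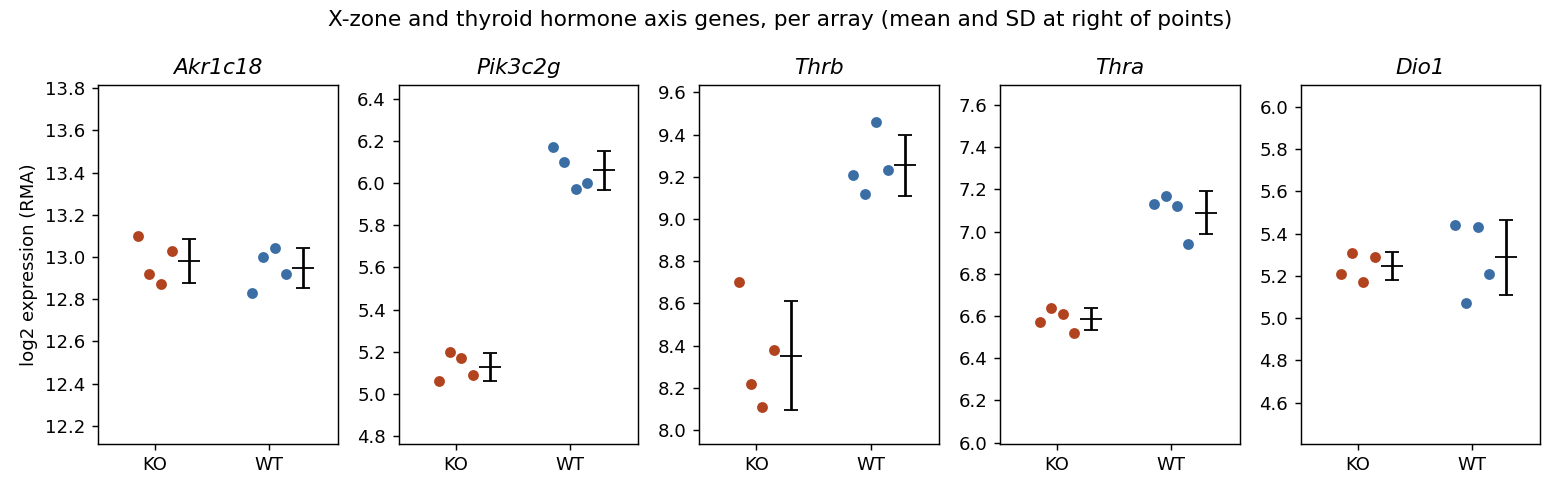
Log2 expression of the 5 genes in each KO (left) and WT (right) array, 1 point per array, with the mean and SD beside the points and axes of equal length. *Pik3c2g*, *Thrb* and *Thra* separate the genotypes, with shifts of -0.93, -0.90 and -0.50, while the arrays overlap in *Akr1c18* and *Dio1*.

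The order of the KO arrays differed among the 3 genes that fell, with replicate 1 highest in *Thrb* and replicate 2 highest in *Pik3c2g* and *Thra*. For each gene the 3 other genes with the highest Pearson r over the 8 arrays were taken from those with a mean above the median of all clusters. Much of a high r is the genotype difference itself, which the search favours. For *Thrb* they were *Cd1d1*, which encodes a lipid-presenting protein (r = 0.990), *Nr0b1*, the nuclear receptor DAX1 that restrains steroidogenic genes and whose loss in mice alters X-zone regression (r = 0.990), and *Speer9-ps1* (r = 0.989). The authors count *Nr0b1* among the markers of the zona glomerulosa. After subtracting each genotype's mean, r with *Thrb* was 0.93 for *Cd1d1*, 0.97 for *Nr0b1* and 0.93 for *Speer9-ps1*.

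*Nr0b1* measured 6.80, 5.37, 5.05 and 5.83 in KO replicates 1 to 4, against 9.48, 9.34, 9.84 and 9.32 in WT replicates 1 to 4. As in *Thrb*, KO replicates 1 and 4 were the higher KO arrays and WT replicate 3 was the highest of all. *Nr0b1* fell by 3.73 (SE 0.31, adjusted p = 4.0e-05 from limma), and *Cd1d1* fell by 2.53 (SE 0.27, adjusted p = 1.7e-04 from limma).

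**Figure D2:**
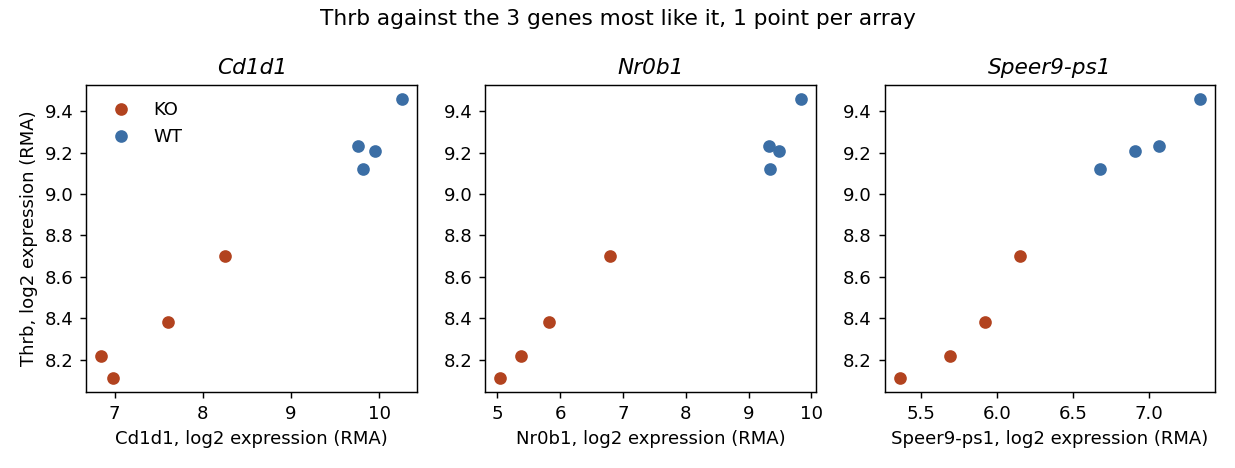
*Thrb* on the vertical axis against *Cd1d1*, *Nr0b1* and *Speer9-ps1* on the horizontal axes, all log2, 1 point per KO or WT array. KO replicate 1, with *Thrb* at 8.70 and *Nr0b1* at 6.80, is the KO point nearest to the WT arrays in each panel.

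For *Pik3c2g* the genes most like it were *Ecrg4*, a secreted peptide precursor (r = 0.994), *Chchd10*, a mitochondrial protein (r = 0.992), and *Casp12*, a caspase of the endoplasmic reticulum (r = 0.990). *Ecrg4* fell by 2.58 (SE 0.089) and *Casp12* fell by 1.33 (SE 0.072). Within genotypes r with *Pik3c2g* was 0.67 for *Ecrg4*, 0.83 for *Chchd10* and 0.39 for *Casp12*. *Chchd10* fell by 0.58 (SE 0.068). For *Thra* they were *Sgce*, *Ankrd24* and *Nipsnap1*, with r from 0.986 to 0.988, and all 3 fell by 0.41 to 0.69. For *Akr1c18* the nearest gene was *Rbm7* (r = 0.971) and for *Dio1* it was *Kremen2* (r = 0.987), neither of which passed the test.

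Further markers of X-zone or fetal cortex cells moved both ways. Of 11 measured, *Akr1c18*, *Pik3c2g* and *Thrb* included, 4 fell, 3 rose and 4 did not pass, beside 13.5% of all clusters called. The median log2 fold change of the 11 was -0.13. Apart from *Pik3c2g*, *Thrb* and *Nr0b1*, the gene that fell was *Cited2*, a transcriptional coregulator of adrenal development (-0.51, SE 0.15), chosen after its values were seen. *Nr0b1* is also a zona glomerulosa marker in the authors' account, so its fall is not particular to X-zone or fetal cells. *Cyp17a1*, the hydroxylase that the fetal cortex uses and the adult mouse adrenal largely lacks, measured 4.75, 4.81, 4.14 and 4.51 in KO adrenals, against 3.97, 3.75, 3.79 and 3.61 in WT adrenals. All KO arrays lay above all WT arrays, and *Cyp17a1* rose by 0.77 (SE 0.14, adjusted p = 0.0043 from limma), with KO values inside the range of the kidney markers. With the mean of the adipocyte markers added to the fit its change was 0.37 (adjusted p = 0.30 from limma). *Abcb1b*, a drug efflux transporter (0.58, SE 0.072), rose, as did *Wt1*, which acts in the early adrenal primordium (0.61, SE 0.12). Both were picked once their values had been seen.

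*Akr1c18* belongs to the aldo-keto reductases, whose gene cluster holds close paralogs that could share probes. Of 13 measured genes of this family, 4 rose, 1 fell and 8 did not pass (median log2 fold change 0.042), beside 13.5% of all clusters called. *Akr1b8* rose by 1.32 (SE 0.12), *Akr1a1* rose by 0.50 (SE 0.082) and *Akr1c14*, a near neighbour of *Akr1c18* that reduces steroids, rose by 0.38 (SE 0.083). *Akr1d1*, the steroid 5β-reductase, measured 10.85, 8.21, 6.52 and 8.94 in KO replicates 1 to 4, against 12.38, 12.27, 12.43 and 12.16 in WT replicates 1 to 4. The KO arrays stood far apart from each other, in the order of *Thrb* (replicates 1, 4, 2 and 3), and *Akr1d1* fell by 3.68 (SE 0.69, adjusted p = 0.0051 from limma).

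Among genes that make or use progesterone, the substrate of *Akr1c18*, 2 of 10 measured rose and 2 fell, beside 13.5% of all clusters called. The median log2 fold change of the 10 was -0.061. *Cyp11a1*, which makes pregnenolone from cholesterol, rose by 0.24 (SE 0.066), and *Cyp17a1* was the other that rose. *Hsd3b6*, which makes progesterone in the zona glomerulosa, fell by 1.70 (SE 0.36), and *Cyp11b2*, aldosterone synthase, fell by 4.30 (SE 0.20). *Pgr*, the progesterone receptor and chosen after its values were seen, had a log2 fold change of -0.036 (adjusted p = 0.86 from limma). *Cyp11a1* did not pass when any array other than WT replicate 1 was left out.

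*Pik3c2g* was 1 of 16 phosphoinositide kinase genes and partners measured. Of the 16, 4 fell, 1 rose and 11 did not pass (median log2 fold change -0.017), beside 13.5% of all clusters called. *Pik3c2b*, the class II β enzyme, measured 6.34, 6.05, 6.30 and 6.28 in KO adrenals, against 6.90, 6.73, 6.84 and 6.82 in WT adrenals, and fell by 0.58 (SE 0.079). *Pik3c2a*, the third class II enzyme and chosen after its values were seen, had a log2 fold change of 0.35 (SE 0.11, adjusted p = 0.058 from limma). Of the regulatory subunits, *Pik3r1* fell by 0.44 (SE 0.098) and *Pik3r5* rose by 0.83 (SE 0.13).

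The thyroid hormone receptor genes and the genes listed with them fell or did not pass, and none rose. Of 16 measured, 6 fell, the receptors *Thra* and *Thrb* and the clock gene *Nr1d1* included, beside 6.17% of all clusters lower. The median log2 fold change of the 16 was -0.23, beside -0.02 over all clusters. *Ncoa1*, a coactivator, measured 8.59, 8.64, 8.62 and 8.62 in KO adrenals, against 8.85, 8.89, 8.99 and 9.00 in WT adrenals, and fell by 0.31 (SE 0.063). *Ncoa2*, a related coactivator (-0.30, SE 0.069), and *Tbl1xr1*, a subunit of the corepressor complex (-0.30, SE 0.082), also fell. Both were picked once their values had been seen. The retinoid X receptor genes *Rxra* (-0.22, adjusted p = 0.14), *Rxrb* (-0.24, adjusted p = 0.24) and *Rxrg* (-0.32, adjusted p = 0.11) did not pass in limma. These receptor genes were also picked once their values had been seen.

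*Nr1d1*, a nuclear receptor of the circadian clock whose gene overlaps the end of *Thra* on the opposite strand, had the largest decrease of these 16 genes. It measured 8.58, 8.77, 8.45 and 8.84 in KO adrenals, against 9.99, 9.93, 9.70 and 9.73 in WT adrenals. The genotypes were far apart, and *Nr1d1* fell by 1.18 (SE 0.10, adjusted p = 5.4e-05 from limma). The part of the overlap in the value of either gene was not tested.

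Genes of thyroid hormone supply changed in both directions. Of 23 measured, 2 rose, 2 fell and 19 did not pass (median log2 fold change 0.018), beside 13.5% of all clusters called. The pair that rose forms a transporter that is known for amino acids and also carries thyroid hormones. *Slc7a8*, its light chain LAT2, measured 11.88, 11.56, 11.48 and 11.44 in KO adrenals, against 10.34, 9.84, 10.19 and 10.37 in WT adrenals. *Slc3a2*, the heavy chain, measured 11.00, 10.96, 11.16 and 10.96 in KO adrenals, against 9.87, 9.85, 9.82 and 9.51 in WT adrenals. In both genes the KO arrays lay above the WT arrays, and *Slc7a8* rose by 1.40 (SE 0.13, adjusted p = 8.5e-05 from limma) and *Slc3a2* rose by 1.26 (SE 0.092, adjusted p = 1.9e-05 from limma). *Slc7a5*, the other light chain that carries thyroid hormones, had a log2 fold change of 0.64 (SE 0.30, adjusted p = 0.22 from limma) and was chosen after its values were seen.

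*Tshr*, the thyrotropin receptor, is also expressed in fat and measured 4.73, 5.49, 6.25 and 5.48 in KO replicates 1 to 4, against 6.14, 6.87, 6.77 and 7.27 in WT replicates 1 to 4. It fell by 1.28 (SE 0.30, adjusted p = 0.017 from limma), although KO replicate 3 lay above WT replicate 1 and it did not pass without WT replicate 4. *Slco2b1*, an organic anion transporter, fell by 0.42 (SE 0.12) and still passed without WT replicate 2 or KO replicate 3, but not without any other single array. *Dio2*, the deiodinase that makes active hormone in brown fat and chosen after its values were seen, measured 4.62, 4.71, 4.83 and 4.95 in KO adrenals, against 4.73, 6.35, 6.03 and 7.29 in WT adrenals. WT replicate 1 lay among the KO arrays, and the log2 fold change of -1.32 (SE 0.41, adjusted p = 0.059 from limma) did not pass. *Dio3*, which inactivates the hormone and was chosen after its values were seen, had a log2 fold change of 0.16 (adjusted p = 0.18 from limma). Of 5 thyroid markers measured, *Tshr* was the only one that passed, and *Tg*, thyroglobulin, stayed between 5.03 and 5.25 in KO and between 5.24 and 5.49 in WT.

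**Figure D3:**
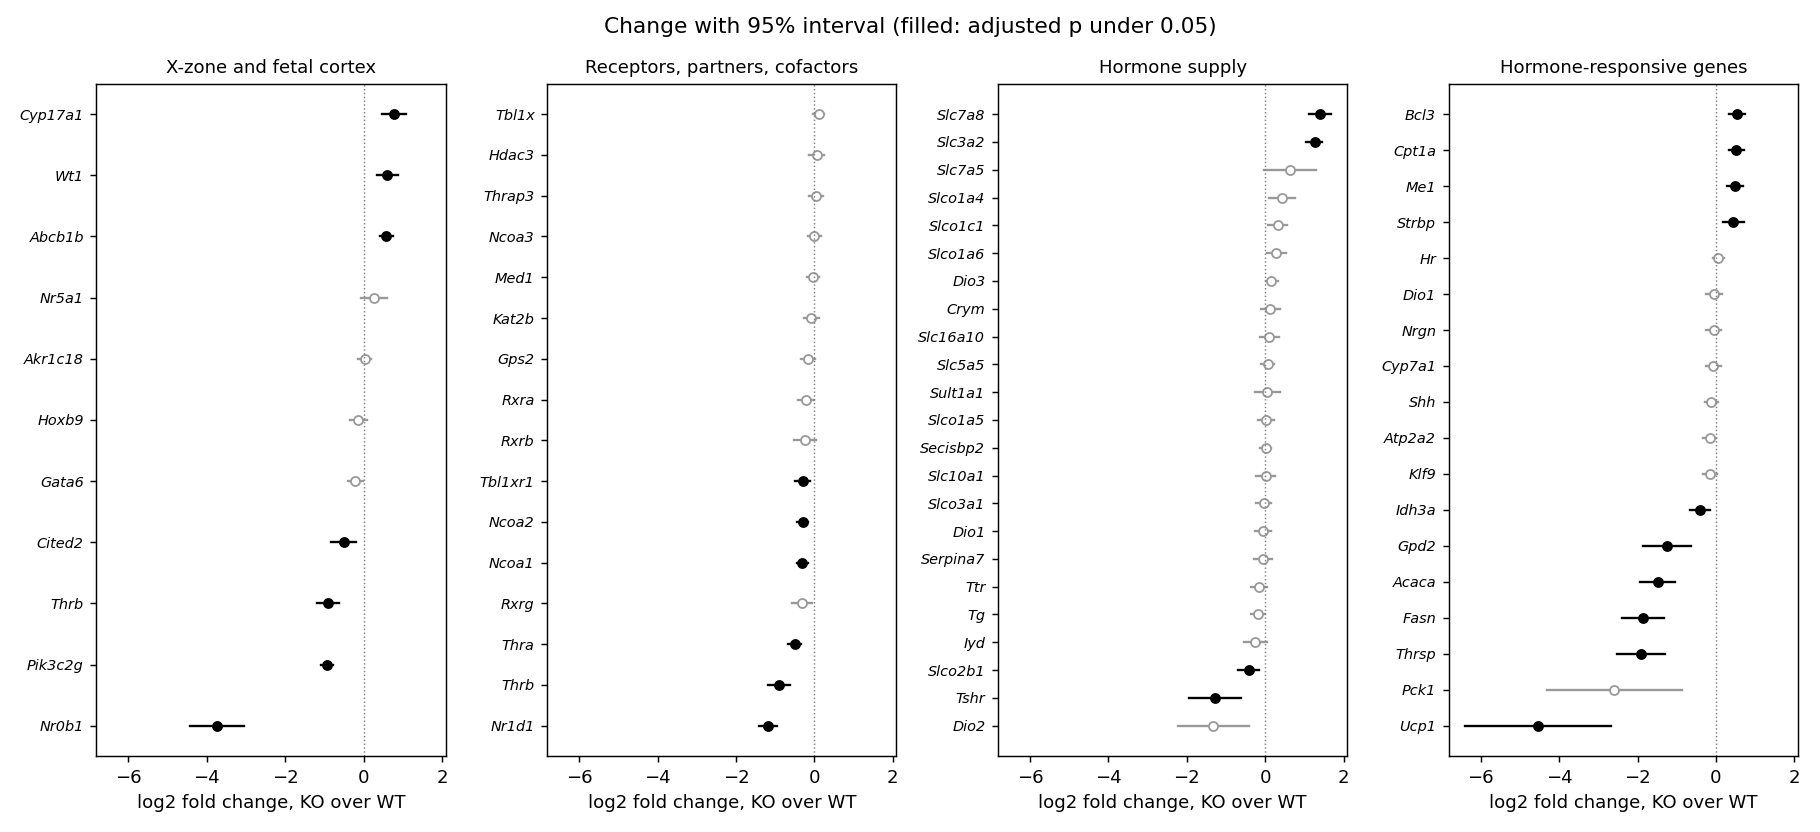
Log2 fold change of KO over WT with its 95% interval for X-zone and fetal genes, receptors and partners, hormone supply and hormone-responsive genes. Points are filled where the adjusted p from limma was under 0.05. No gene of the receptor panel, which includes *Nr1d1*, is called to the right of 0, and *Slc7a8* (1.40) and *Slc3a2* (1.26) stand apart among the supply genes.

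Genes known to respond to thyroid hormone changed in both directions. Of 18 measured, 6 fell, 4 rose and 8 did not pass (median log2 fold change -0.13), beside 13.5% of all clusters called. *Thrsp*, a regulator of lipogenesis that the hormone induces in liver, measured 7.57, 7.87, 8.68 and 8.28 in KO adrenals, against 9.30, 10.02, 10.43 and 10.34 in WT adrenals, and fell by 1.92 (SE 0.27, adjusted p = 0.0010 from limma). *Fasn*, fatty acid synthase, fell by 1.86 (SE 0.24), *Acaca*, acetyl-CoA carboxylase, fell by 1.49 (SE 0.20), and *Ucp1*, the uncoupling protein of brown fat, fell by 4.55 (SE 0.84). All 4 are also genes of fat cells or fat synthesis, and WT replicate 1 was the lowest WT array in each.

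Other responsive genes, all picked once their values had been seen, moved both ways. *Gpd2*, the mitochondrial glycerol phosphate dehydrogenase, fell by 1.24 (adjusted p = 0.012 from limma), and *Idh3a*, a subunit of mitochondrial isocitrate dehydrogenase, fell by 0.41 (adjusted p = 0.039 from limma). WT replicate 1 was the lowest WT array in both. *Klf9*, a transcription factor that the receptors induce directly, measured 9.10, 9.04, 9.20 and 9.18 in KO adrenals, against 9.19, 9.48, 9.32 and 9.14 in WT adrenals, with a log2 fold change of -0.15 (SE 0.085, adjusted p = 0.30 from limma). *Hr*, the hairless corepressor, had a log2 fold change of 0.064 (SE 0.066, adjusted p = 0.61 from limma). *Me1*, malic enzyme (0.50, SE 0.091), *Cpt1a*, which admits fatty acids to mitochondria (0.52, SE 0.087), and *Bcl3* (0.54, SE 0.091) rose.

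With the mean of the 11 adipocyte markers per array added to the limma fit, *Thrb* (-1.10, SE 0.19, adjusted p = 0.012), *Thra* (-0.54, SE 0.12, adjusted p = 0.032) and *Pik3c2g* (-0.98, SE 0.12, adjusted p = 0.0017) still passed. *Slc7a8* (1.14, SE 0.19) and *Slc3a2* (1.20, SE 0.15) did too. Of the fat-related responsive genes, *Thrsp* (-0.91, SE 0.19, adjusted p = 0.028) and *Fasn* (-1.01, SE 0.20, adjusted p = 0.020) passed in this limma fit, while *Acaca* (-1.05, SE 0.29, adjusted p = 0.076) and *Ucp1* (-1.65, SE 0.75, adjusted p = 0.30) did not. *Ucp1* is itself 1 of the 11 markers in the covariate, so part of its smaller change in this fit was built in. *Hsd3b6* (-0.80, SE 0.47, adjusted p = 0.45 from limma) no longer passed either, nor did *Akr1a1* (0.51, adjusted p = 0.075), *Cyp11a1* (0.15, adjusted p = 0.55), *Pik3r1* (-0.48, adjusted p = 0.15) and *Slco2b1* (-0.31, adjusted p = 0.49). The change of *Dio2* was 0.01 (SE 0.41) and that of *Tshr* was -0.16 (SE 0.21), and *Ncoa1* (-0.23, SE 0.10, adjusted p = 0.28) no longer passed. Because the marker mean was tied to genotype (r = -0.78 over the 8 arrays), fat and genotype cannot be told apart in this fit. The covariate was added after the data were seen.

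**Figure D4:**
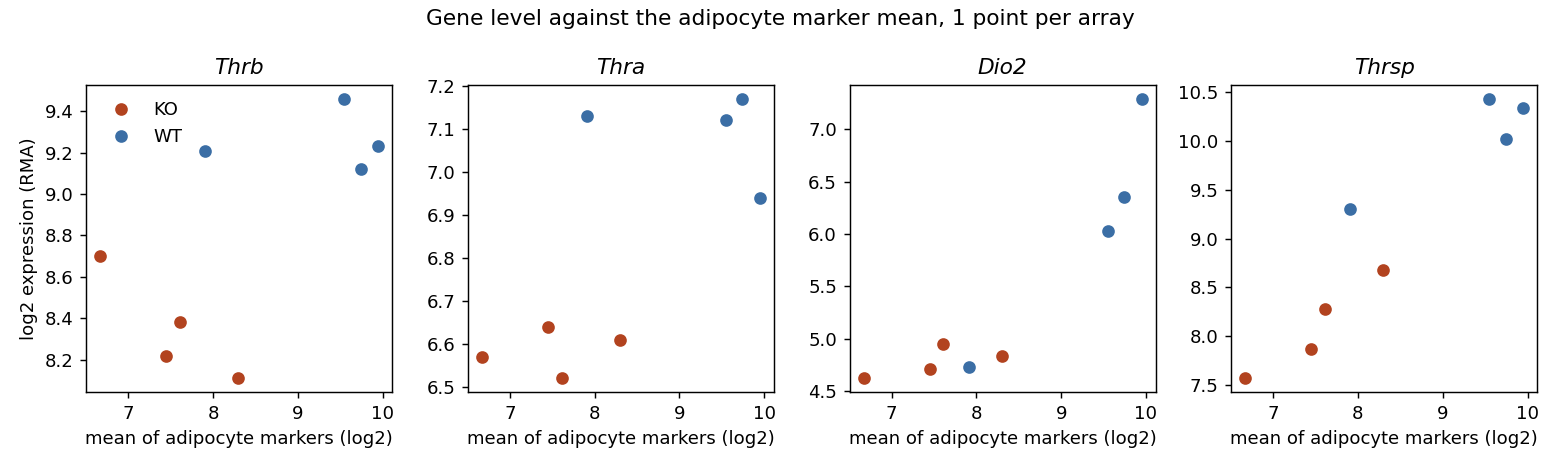
*Thrb*, *Thra*, *Dio2* and *Thrsp* (log2, vertical) against the mean of 11 adipocyte markers (log2, horizontal), 1 point per KO or WT array. WT replicate 1, at a marker mean of 7.91, lies among the KO arrays on the horizontal axis, with *Dio2* at 4.73 beside the KO arrays and *Thrb* at 9.21 beside the other WT arrays.

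Genes of hormone and growth factor signals changed in both directions, and whether they act in the X-zone of these adrenals was not tested. Of 18 measured genes for sex steroid, growth hormone, activin, inhibin and TGFβ signals, 4 rose, 2 fell and 12 did not pass. Over all clusters 13.5% were called, and the median log2 fold change of the 18 was 0.054. *Esr1*, the oestrogen receptor, measured 6.57, 6.96, 6.56 and 7.14 in KO adrenals, against 8.16, 8.58, 7.82 and 8.03 in WT adrenals, and fell by 1.34 (SE 0.17, adjusted p = 5.7e-04 from limma). *Inha*, the inhibin subunit, fell by 0.35 (SE 0.098) and was chosen after its values were seen. *Acvr1*, a type I receptor of the activin and BMP family (0.78, SE 0.14), *Smad3*, which carries activin and TGFβ signals (0.69, SE 0.084), and *Fstl3*, a secreted activin inhibitor (0.81, SE 0.095), rose. *Acvr1c*, the activin receptor ALK7 and chosen after its values were seen, had a log2 fold change of -0.82 (SE 0.26, adjusted p = 0.068 from limma).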

How the data were processed

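Whole adrenals of 4 KO and 4 WT mice were hybridised to Affymetrix Mouse Gene 2.0 ST arrays. The authors normalized the arrays by RMA, which corrects the background, equalises the distributions and summarises probes, so the deposited values are on the log2 scale, and they were used as deposited. The version of RMA is not given in the sources used here. A deposited table of the authors' own comparison (fold changes and adjusted p-values) was not used. Quantile-based scaling assumes that most genes do not change.

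Symbols came from the platform annotation. Of 28067 transcript clusters, the 22822 with 1 symbol were tested, and 1703 with several symbols and 3542 with none were left out. Where a symbol had several clusters, the one with the highest mean stood for it. KO was set against WT in a linear model without covariates (lmFit, then eBayes, in limma 3.58.1 under R 4.3.3, two-sided), with p-values adjusted over all 22822 clusters and calls at an adjusted p under 0.05. Shifts between pairs of genes were tested by exact permutation (scipy 1.17.1). Procedures were checked on simulated data. With 4 arrays a genotype, precision is limited by their number.

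The members and all lists were chosen with earlier results of these data known, as were the alternatives. Named are the members, up to 4 genes per list, called ones before others and by size of change, and the 3 genes most like each member. Others are said to be chosen after their values were seen. Listed genes without a cluster of their own were not analysed here. Promoters came from RefSeq (GRCm38.p6).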

Additional observations from a re-analysis of the deposited data

Results flagged for a closer look

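Among the 78 genes named by the rules, each genotype's 4 arrays were searched for 1 array far from the other 3, which chance gives in about 1 of 20 groups. Of 156 groups, 9 had one, and none was a group of *Akr1c18*, *Pik3c2g*, *Thrb*, *Thra* or *Dio1*. WT replicate 1 stood apart in *Ucp1* (5.95, the others 9.91 to 10.64), *Cidea*, which is abundant in brown fat (6.50, the others 9.91 to 10.04), *Acvr1* (7.79, the others 7.64 to 7.66) and *Tg* (5.49, the others 5.24 to 5.27). WT replicate 4 stood apart in *Slc3a2* (9.51, the others 9.82 to 9.87), *Pik3r5* (6.03, the others 5.72 to 5.75) and *Nipsnap1* (6.52, the others 6.80 to 6.85), a gene that resembled *Thra*. KO replicate 3 was high in *Hsd3b6* (8.95, the others 7.43 to 7.64), and KO replicate 4 was low in *Slc5a5*, the iodide transporter (5.29, the others 5.33 to 5.34).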

How the results depend on the processing

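*Pik3c2g*, *Thrb* and *Thra* kept their direction and passed under every alternative that gave a value. *Thrb* ranged from -1.02 to -0.82 with 1 array left out. No other cluster of the 5 genes could be tried, and *Pik3c2g* and *Dio1* lay below the median intensity and had no value among brighter clusters. Without 1 array *Akr1c18* ranged from -0.0097 to 0.066, below 0 without WT replicate 1 (-0.0097) or KO replicate 1 (-0.0092), and *Dio1* ranged from -0.12 to 0.0059, above 0 without WT replicate 1 (0.0059) or WT replicate 3 (0.0031). None of these passed. Both shifts between gene pairs kept their sign, and with 1 array left out their permutation test cannot pass.

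With unequal variances 1202 clusters were called in place of 3085, 710 higher and 492 lower, with the adipocyte covariate (added after seeing the data) 1148, 659 higher and 489 lower, and with the methods' *t*-test 920 were lower. Calls with unequal variances numbered 4 for X-zone and fetal cortex (7 in limma), 3 for hormone and growth factor signals (6) and 2 for hormone supply (4). They numbered 3 for hormone-responsive genes (10), 2 for the reductases (5), 2 for the kinases (5) and 1 for progesterone (4). With the covariate they numbered 2 for supply, 3 for receptors and partners (6) and 5 for responsive genes. In the same fit they numbered 3 for the reductases, 3 for the kinases and 1 for progesterone. With the methods' test they numbered 2 for supply, 6 for responsive genes and 3 for the kinases. Supply calls ranged from 2 to 5 with 1 array left out. *Tshr*, *Slco2b1*, *Akr1d1*, *Hsd3b6*, *Pik3r1* and *Ucp1* passed neither of the 2 tests per gene, and *Cyp11a1*, *Cyp17a1*, *Acaca*, *Acvr1*, *Pik3r5* and *Akr1c14* did not pass with unequal variances. The cause of these differences was not tested.

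Same-numbered arrays deviated together by r of -0.0402 to 0.0424, and differently numbered ones by r of -0.129 to 0.152. Littermates could carry different numbers, so these values cannot settle whether arrays were paired. With the replicate block 2608 clusters were called.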
